A study of Mus musculus with 12 samples.

Results

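The CXC chemokines are small secreted proteins that steer leukocytes towards sites of inflammation. The ligands Cxcl1, Cxcl2, Cxcl3, Cxcl9, Cxcl10, Cxcl11 and Cxcl16 and the receptor Cxcr4 were followed here in mouse bone marrow-derived macrophages. They were taken by gene symbol, by a rule that names no expression value, though with earlier results of these data known, and make up 8 of the 47937 genes in the deposited count table. All 8 had at least 1 read in the series, and 6 passed the filter on low counts, whereas Cxcl1 and Cxcl3 did not. Libraries were made from 4 groups of 3 libraries each, and the groups cross inflammatory activation with inhibition of diacylglycerol O-acyltransferase 1 (DGAT1), an enzyme that completes the synthesis of triacylglycerol.

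The ligands fall into families by the receptor they bind. Cxcl1, Cxcl2 and Cxcl3 act on Cxcr2 and recruit neutrophils, and their genes are classical targets of NF-κB downstream of Toll-like receptors. Cxcl9, Cxcl10 and Cxcl11 bind Cxcr3, which is found on activated T cells and NK cells, and their genes answer to interferons. Cxcl16 is made as a membrane-bound protein, binds Cxcr6 and can be shed by the protease Adam10, and Cxcr4 is the receptor for Cxcl12 that retains cells in the bone marrow.

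All cells came from C57BL/6 mice aged 6 to 8 weeks and carried no engineered allele. Marrow was cultured for 7 days with CSF-1 at 20 ng/ml, which drives differentiation into macrophages. Resting (M0) cells received neither stimulus nor inhibitor, and the labels give no time for them. Inflammatory macrophages were stimulated with 50 ng/ml IFNγ and 20 ng/ml LPS, a ligand of Toll-like receptor 4, for 18 h. The DGAT1 inhibitor T863 (DGAT1i), at 50 µM, was given to resting cells for 18 h and to cells activated with IFNγ + LPS for 18 h. The free text of 2 of the 3 libraries of M0 with DGAT1i names the compound T864 or T865, while another label of the same libraries names T863. The sources do not say whether libraries came from separate mice, so p-values measure the spread between these libraries, which may be in part technical. A single inhibitor at 1 dose was used, and effects of T863 other than on DGAT1 cannot be told apart from inhibition of the enzyme in these libraries.

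Totals ran from 4996014 to 6621671 reads per library, and 1 CPM (a gene's count scaled to a common library size with TMM) was worth 4.28 to 7.58 reads. The macrophage markers Adgre1, Csf1r, Itgam, Cd68, Lyz2, Fcgr1 and Mertk were above a mean of 1 CPM in every group. Markers of other cells stayed low. Summed neutrophil markers were 36.5 to 45.0 CPM in M0, 16.8 to 27.3 CPM with IFNγ + LPS, 28.8 to 36.3 CPM in M0 with DGAT1i and 64.3 to 82.4 CPM in activated cells with DGAT1i, with Ly6g and Retnlg at 0 reads in all groups and S100a8 and S100a9 leading the last sum (means of 34.5 and 25.8 CPM). Summed dendritic cell markers reached 11.99 to 16.8 CPM with IFNγ + LPS and 3.13 to 4.12 CPM when DGAT1i was added, with Siglech at 0 reads in both and most of the sums from Xcr1 and Clec9a. Summed endothelial markers were 13.3 to 17.6 and 5.76 to 10.5 CPM in the same groups, nearly all from Kdr (means of 14.4 and 7.93 CPM), while Cdh5 was at 0.331 and 0.0686 CPM and Tek at 0 reads. Summed T cell, B cell, NK cell, fibroblast and mast cell markers were at most 4.83 CPM in any library. The part that such cells have in the results below was not tested, and in bulk RNA fewer cells of a type and less RNA per cell cannot be told apart.

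The members lie in the genome partly as neighbours. By the GENCODE M21 annotation on GRCm38, Cxcl3 (5:90786103-90789600), Cxcl1 (5:90891241-90893115) and Cxcl2 (5:90903871-90905938) share the plus strand of chromosome 5. Cxcl9 (5:92321347-92328079), Cxcl10 (5:92346638-92348889) and Cxcl11 (5:92359544-92365485) follow on the minus strand. Cxcl16 lies on chromosome 11 (70453983-70459984, minus strand) and Cxcr4 on chromosome 1 (128588199-128592293, minus strand). Cxcl11 carries the biotype polymorphic pseudogene in this annotation, since the C57BL/6 allele is known to hold a frameshift, and its values are transcript levels only.

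Promoters of 5 ligands are shown because the stimuli signal through NF-κB and interferon response factors. Whether the letters in these windows bear on the levels of the genes was not tested. Entries were found for 6 of the 8 members in the RefSeq promoter table (GRCm38.p6). Each sequence covers 220 bases, from 250 to 31 bases upstream of the RefSeq start, and reads 5′ to 3′ on the gene's own strand. Capitals mark every match, on either strand, to the NF-κB consensus (GGG, a purine, any 2 bases, 2 pyrimidines and CC) or to the core of the interferon-stimulated response element (GAAA, any 2 bases and GAAA).
Cxcl1, chr5:90890995-90891214, + strand: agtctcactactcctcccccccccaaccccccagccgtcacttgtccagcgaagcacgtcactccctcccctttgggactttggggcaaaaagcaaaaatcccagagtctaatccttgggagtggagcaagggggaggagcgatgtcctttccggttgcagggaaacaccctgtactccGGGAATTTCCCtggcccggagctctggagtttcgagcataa
Cxcl2, chr5:90903649-90903868, + strand: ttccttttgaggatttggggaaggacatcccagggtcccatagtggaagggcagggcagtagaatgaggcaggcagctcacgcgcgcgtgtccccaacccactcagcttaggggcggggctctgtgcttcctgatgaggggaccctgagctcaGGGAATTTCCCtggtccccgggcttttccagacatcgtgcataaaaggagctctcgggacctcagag
Cxcl3, chr5:90785851-90786070, + strand: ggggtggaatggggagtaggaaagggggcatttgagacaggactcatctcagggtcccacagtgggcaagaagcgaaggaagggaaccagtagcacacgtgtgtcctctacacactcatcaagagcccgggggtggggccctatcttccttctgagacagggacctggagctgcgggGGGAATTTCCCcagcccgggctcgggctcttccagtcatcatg
Cxcl9, chr5:92328110-92328329, - strand: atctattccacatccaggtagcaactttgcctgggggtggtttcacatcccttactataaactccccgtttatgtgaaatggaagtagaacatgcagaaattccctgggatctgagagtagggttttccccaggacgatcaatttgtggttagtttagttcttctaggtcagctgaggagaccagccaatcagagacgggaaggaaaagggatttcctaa
Cxcl10, chr5:92348920-92349139, - strand: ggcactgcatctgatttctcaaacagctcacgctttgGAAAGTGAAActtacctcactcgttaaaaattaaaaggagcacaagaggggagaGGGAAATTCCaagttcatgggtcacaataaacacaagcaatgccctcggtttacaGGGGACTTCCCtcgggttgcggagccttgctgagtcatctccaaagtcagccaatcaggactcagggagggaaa

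Cxcl1, Cxcl2 and Cxcl3 each held the same stretch, GGGAATTTCCC, which matches the NF-κB consensus on both strands with the 2 matches overlapping. It lay 71 to 61 bases before the start in Cxcl1, 97 to 87 bases in Cxcl2 and 73 to 63 bases in Cxcl3. Cxcl10 held the response element core GAAAGTGAAA 213 to 204 bases before its start and NF-κB matches at 2 places further downstream, GGGAAATTCC and the overlapping matches within GGGGACTTCCC. None of these letters were found in the windows of Cxcl9 and Cxcr4. Among 32841 RefSeq promoter windows of the same length, 6.34% held an NF-κB match and 2.63% the response element core. A match is a description of the letters in this window, and no binding was measured.

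The first comparison asked how the chemokines answer to inflammatory activation. The interferon-inducible trio went from no or few reads to some of the most abundant transcripts of this family, Cxcl16 rose from a clear resting level, Cxcl2 rose but stayed low, and Cxcr4 fell. All 6 members tested passed an adjusted p of 0.05 in edgeR's quasi-likelihood test, 5 of them higher. This share is to be read against 73.3% of all 11760 genes tested that were called in the same comparison, 37.1% as higher and 36.2% as lower. Cxcl9, Cxcl10 and Cxcl11 passed the filter on low counts only through the activated groups, where they are high, and had to differ. The count is therefore no support for a rise of the family, and neither a median nor p-values of Cxcl9, Cxcl10 and Cxcl11 for activation are given. No member tested overlapped between the groups, beside 75.4% of all genes tested.

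Cxcl9, a chemoattractant of Cxcr3-bearing T cells, had 0 reads in each of the 3 M0 libraries. The IFNγ + LPS libraries held 12067, 15333 and 13082 Cxcl9 reads, or 2541, 2760 and 2451 CPM. Against a floor of 3 reads over the M0 group, Cxcl9 was at least 18611-fold higher.

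Cxcl10, which shares the receptor Cxcr3, had 5, 2 and 5 reads in M0. After activation 10871, 13303 and 12505 reads were counted, and the mean level went from 0.563 ± 0.257 to 2342 ± 52.9 CPM (SD, n = 3 libraries). The groups did not overlap, and the ratio of pooled levels was 4216-fold (log2 fold change 11.99 ± 0.11 SE). Its exons share 133 bases with Art3 on the opposite strand, which had between 0 and 5 reads per library.

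Cxcl11 had no read in M0 and 834, 1030 and 990 reads after activation, a mean of 182 ± 5.68 CPM. It was at least 1312-fold higher than the floor of 3 reads over the M0 libraries. The antisense gene Gm2673, which shares 1582 exonic bases with Cxcl11, had 0 reads in all 12 libraries.

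Cxcl16, the transmembrane ligand of Cxcr6, was already present in resting cells at 45.0, 50.3 and 44.0 CPM. It stood at 878, 743 and 752 CPM after IFNγ + LPS, so that every activated library lay above every resting one. The fold change was 16.9 (log2 fold change 4.09 ± 0.07 SE, edgeR adjusted p = 7.63e-38). Zmynd15 overlaps 552 exonic bases of Cxcl16 on the opposite strand and went from 2.50 ± 0.126 to 26.3 ± 3.62 CPM without overlap. Whether reads were counted by strand is not given in the sources used here, so reads in the shared stretch may belong to either gene.

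Of the neutrophil chemoattractants, Cxcl1 and Cxcl3 were near the detection limit at 18 h, and no earlier time after activation was sampled. Cxcl2 had 6, 13 and 8 reads in M0 and 29, 40 and 33 reads after activation, which correspond to means of 1.24 ± 0.443 and 6.50 ± 0.611 CPM. The groups did not overlap and Cxcl2 rose 5.21-fold (log2 fold change 2.36 ± 0.30 SE, edgeR adjusted p = 5.36e-10). Cxcl1 had 0, 2 and 2 reads in M0 and 0, 2 and 0 reads in inflammatory macrophages, too few for a test, and a difference was not detectable at this depth. Cxcl3 had no read in M0 and 1, 2 and 1 reads after activation, which is too few for a fold and was likewise not tested. Transcripts of Cxcl2 and Cxcl3 are alike, with a longest shared match of 561 bases at 90.0% identity. A match of higher identity covers part of a Cxcl2 transcript, so the split of the few reads between Cxcl2 and Cxcl3 is uncertain.

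Cxcr4 was the only one of the 6 tested members that fell. It went from 47.8, 41.0 and 52.5 CPM in M0 to 5.90, 5.04 and 4.87 CPM after activation, on 26 to 28 reads per activated library. That is an 8.97-fold lower level with no overlap (log2 fold change -3.16 ± 0.14 SE, edgeR adjusted p = 2.82e-28).

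**Figure D1:**
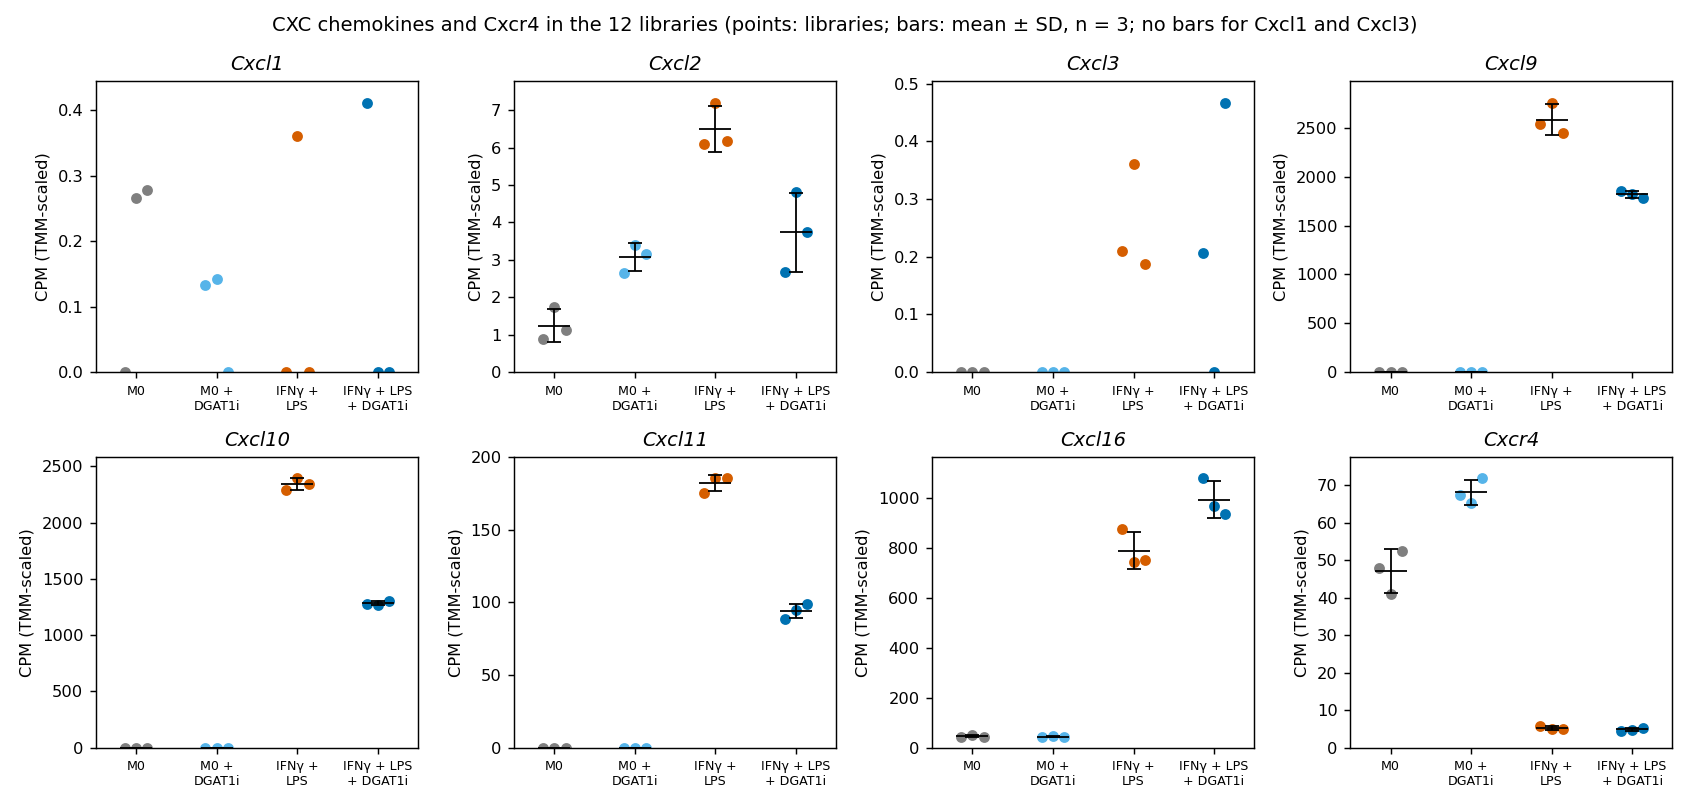
Level of the 8 genes in each of the 12 libraries (TMM-scaled CPM, linear axis from 0, 1 panel per gene). Points are libraries and bars the mean ± SD of 3 libraries, which are left out for Cxcl1 and Cxcl3. Cxcl9, Cxcl10 and Cxcl11 lie at or near 0 without IFNγ + LPS and are lower in activated cells with DGAT1i, whereas Cxcl16 is higher there and Cxcr4 is highest in resting cells with DGAT1i.

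Compared per kilobase of exon, the order of the genes turned over with activation. In M0, Cxcr4 (26.1 ± 3.19 CPM per kb) stood above Cxcl16 (15.4 ± 1.13 CPM per kb), and both stood well above Cxcl2 at 0.599 ± 0.214 CPM per kb. Cxcl10 and Cxcl1 followed and overlapped each other, while Cxcl3, Cxcl9 and Cxcl11 were at or under the floor. In inflammatory macrophages Cxcl10 led with 1040 ± 23.5 CPM per kb, ahead of Cxcl9 at 857 ± 52.8 and Cxcl16 at 262 ± 24.8 CPM per kb. Cxcl11 came next at 48.0 ± 1.496 CPM per kb, and Cxcl2 (3.14 ± 0.296) and Cxcr4 (2.91 ± 0.304 CPM per kb) overlapped below it. Cxcl3 was last at 0.0722 CPM per kb, and Cxcl1 was under the floor.

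**Figure D2:**
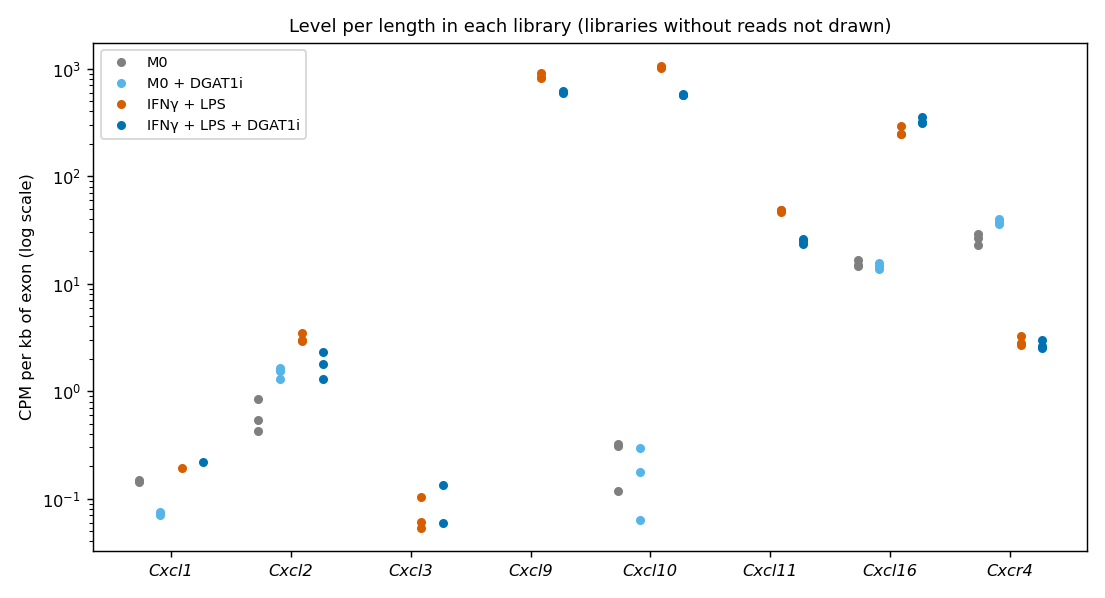
CPM per kilobase of exon (log axis) for each gene and library, coloured by group. Libraries with 0 reads are not drawn. Cxcl10 at 1016 to 1063 CPM per kb lies above Cxcl9 at 813 to 915 CPM per kb in activated cells, and the 2 genes change places when DGAT1i is present, at 565 to 581 and 591 to 614 CPM per kb.

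The next comparison asked what DGAT1i did to this programme in inflammatory macrophages. The Cxcr3 ligands and Cxcl2 were lower with the inhibitor, by between 1.42-fold and 1.95-fold, Cxcl16 was higher and Cxcr4 did not pass the test. Of the 6 members tested 5 were called, 1 higher and 4 lower, beside 29.8% of all genes tested in this comparison (13.5% higher and 16.3% lower). Of the 6, 5 showed no overlap between the groups, beside 39.7% of all genes tested. Their median log2 fold change was -0.65, against -0.01 over all genes tested.

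Cxcl11 went from 176, 185 and 185 CPM to 88.7, 94.5 and 98.8 CPM with DGAT1i. This is 1.95-fold lower (log2 fold change -0.96 ± 0.07 SE, edgeR adjusted p = 7.41e-17). Cxcl10 went from 2289, 2395 and 2343 CPM to 1280, 1272 and 1308 CPM. The level was 1.82-fold lower (log2 fold change -0.86 ± 0.05 SE, edgeR adjusted p = 3.72e-20). Cxcl9 was less affected, at 1852, 1822 and 1784 CPM with DGAT1i, or 1.42-fold lower (log2 fold change -0.51 ± 0.05 SE, edgeR adjusted p = 2.61e-11). For each of these genes all 3 libraries with the inhibitor lay below all 3 without it.

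The proportions within the trio are given as a description. Together the 3 genes took 0.438 ± 0.0114% of all reads in IFNγ + LPS libraries (SD, n = 3) and 0.273 ± 0.00206% with DGAT1i. Per Cxcl9 read, 0.901, 0.868 and 0.956 Cxcl10 reads were counted without DGAT1i and 0.691, 0.698 and 0.733 with it. Cxcl11 reads per Cxcl9 read were 0.0691, 0.0672 and 0.0757 without and 0.0479, 0.0519 and 0.0554 with the inhibitor. Neither ratio overlapped between the groups, and since both are taken within a library they do not depend on scaling between libraries. An exact two-sided permutation test over the 6 libraries gave p = 0.1 for each ratio, which is the smallest p that 3 against 3 libraries allow and cannot pass the threshold. With DGAT1i, Cxcl9 (603 ± 11.3 CPM per kb) stood above Cxcl10 (571 ± 8.40 CPM per kb), the reverse of their order without it, and their ranges did not overlap in either group.

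**Figure D3:**
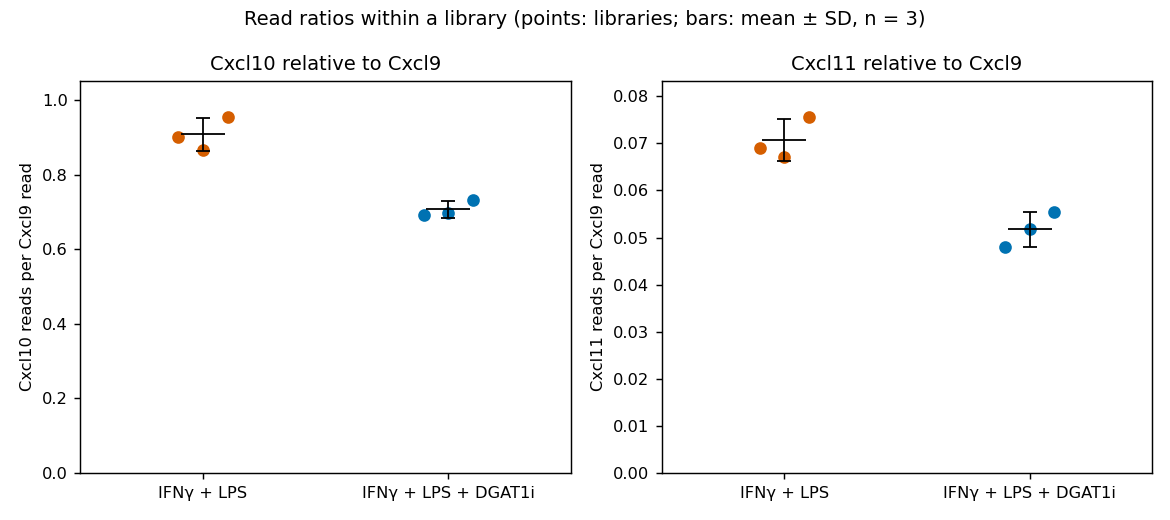
Reads of Cxcl10 (left) and Cxcl11 (right) per Cxcl9 read in the 6 activated libraries, on linear axes from 0. Points are libraries and bars the mean ± SD of 3. The Cxcl10 ratio lies at 0.868 to 0.956 without DGAT1i and at 0.691 to 0.733 with it, and the Cxcl11 ratio at 0.0672 to 0.0757 and 0.0479 to 0.0554.

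Cxcl2 had 29, 40 and 33 reads without DGAT1i and 13, 23 and 16 reads with it, or 6.50 ± 0.611 against 3.74 ± 1.06 CPM. The groups did not overlap, and Cxcl2 was 1.75-fold lower (log2 fold change -0.80 ± 0.26 SE, edgeR adjusted p = 0.0168). The call did not hold under every setting, as the adjusted p was 0.0591 with DESeq2, 0.0726 without the second IFNγ + LPS library and 0.117 without the first library of activated cells with DGAT1i. Cxcl1 (2, 0 and 0 reads) and Cxcl3 (1, 0 and 2 reads) remained at the limit of detection with DGAT1i.

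Cxcl16 moved in the other direction, from 878, 743 and 752 CPM to 1081, 970 and 936 CPM. It was 1.27-fold higher (log2 fold change 0.33 ± 0.06 SE, edgeR adjusted p = 1.89e-05), with the lowest library with DGAT1i above the highest without. Zmynd15 on the opposite strand was at 27.7 ± 3.23 CPM with DGAT1i, overlapping its level without it. Cxcr4 was at 4.53, 4.80 and 5.37 CPM with DGAT1i, overlapping the 4.87 to 5.90 CPM without it. Its log2 fold change of -0.10 ± 0.23 SE (edgeR adjusted p = 0.790) has a range of 2 SE from -0.57 to 0.37.

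In resting macrophages with DGAT1i, Cxcr4 and Cxcl2 were higher, Cxcl16 and Cxcl10 did not pass the test, and Cxcl9 and Cxcl11 had no reads to compare. Thus 2 of the 6 members past the filter were called, both higher, beside 24.4% of all genes tested (11.0% higher and 13.4% lower). Both also had no overlap between the groups, beside 37.8% of all genes tested.

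Cxcr4 went from 329, 308 and 377 reads to 506, 459 and 544 reads, or from 47.1 ± 5.77 to 68.1 ± 3.39 CPM. All libraries with DGAT1i lay above those without, and the increase was 1.45-fold (log2 fold change 0.53 ± 0.08 SE, edgeR adjusted p = 4.34e-07). Cxcl2 went from 6, 13 and 8 reads to 20, 24 and 24 reads, from 1.24 ± 0.443 to 3.08 ± 0.383 CPM. It rose 2.45-fold (log2 fold change 1.28 ± 0.33 SE, edgeR adjusted p = 0.00223). Cxcl16 was at 41.4, 46.6 and 44.2 CPM with DGAT1i, overlapping the 44.0 to 50.3 CPM of M0 (log2 fold change -0.08 ± 0.08 SE, edgeR adjusted p = 0.552). Cxcl10 had 3, 1 and 5 reads with DGAT1i against 5, 2 and 5 without (edgeR adjusted p = 0.668). Cxcl9, Cxcl11 and Cxcl3 had 0 reads in all 6 resting libraries, which allows up to 0.139 CPM in M0 and 0.135 CPM with DGAT1i over the 3 libraries of a group.

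**Figure D4:**
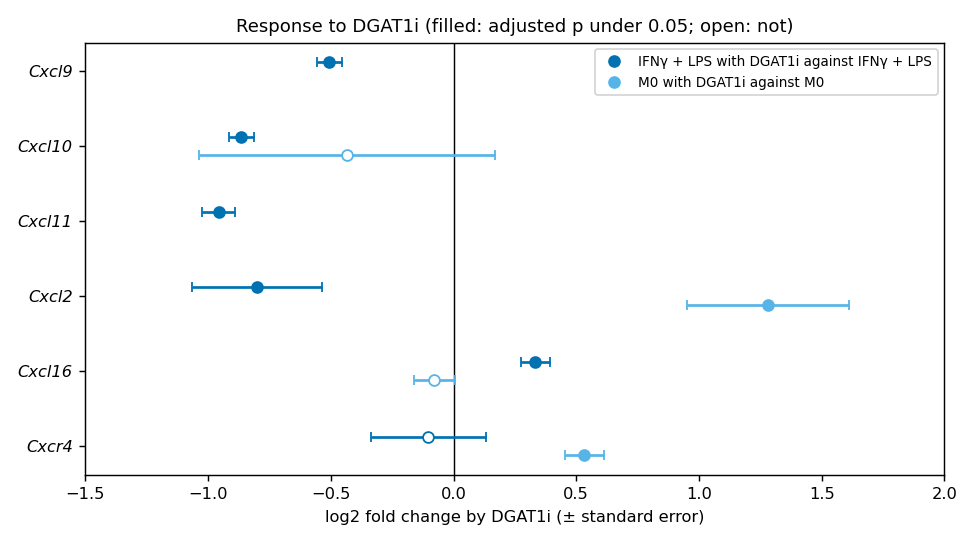
Log2 fold change by DGAT1i (± SE of the fit to all 12 libraries) in activated cells (dark blue) and in resting cells (light blue). Filled points passed an adjusted p of 0.05 and open points did not, and Cxcl9 and Cxcl11 have no resting value because both groups had 0 reads. Cxcl2 lies at -0.80 in activated and 1.28 in resting cells, Cxcl16 at 0.33 and -0.08, and Cxcr4 at -0.10 and 0.53.

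Whether the response to DGAT1i differed between activated and resting cells was tested as the difference of the 2 responses in the same model. It was called for 2 of the 6 members, Cxcl2 and Cxcl16, beside 18.5% of all genes tested (8.66% higher and 9.80% lower). For Cxcl2 the difference was -2.08 ± 0.42 SE on the log2 scale (edgeR adjusted p = 0.000191), as it was higher with DGAT1i in resting cells and lower in activated cells. For Cxcl16 it was 0.41 ± 0.10 SE (edgeR adjusted p = 0.00274). Cxcr4 gave -0.64 ± 0.25 SE and did not pass (edgeR adjusted p = 0.0649), although it did without the third M0 library (adjusted p = 0.0328). For Cxcl10 the difference of -0.43 rested on 21 resting reads and did not pass (edgeR adjusted p = 0.710), and it turned to 0.10 without the third library of M0 with DGAT1i. Cxcl9 and Cxcl11 could not be compared, having no resting reads.

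Activation in the presence of DGAT1i was called for 5 of the 6 members, 4 higher and 1 lower, beside 70.6% of all genes tested (35.3% higher and 35.3% lower), and here too Cxcl9, Cxcl10 and Cxcl11 had passed the filter only through activated libraries. This comparison shares its libraries with those above, and its values are given beside theirs. Cxcl9 was at least 13443-fold higher than the floor, where it was at least 18611-fold without the inhibitor. Cxcl11 was at least 693-fold higher, against at least 1312-fold. Cxcl10 rose 3164-fold, against 4216-fold. Cxcl16 rose 22.7-fold (log2 fold change 4.50 ± 0.07 SE, edgeR adjusted p = 3.59e-39), against 16.9-fold. Cxcr4 was 13.96-fold lower (log2 fold change -3.80 ± 0.14 SE, edgeR adjusted p = 4.00e-32), against 8.97-fold. Cxcl2 was the exception, at 3.08 ± 0.383 CPM in resting and 3.74 ± 1.06 CPM in activated cells with DGAT1i, with overlapping libraries (log2 fold change 0.28 ± 0.29 SE, edgeR adjusted p = 0.392). With scaling by library size alone its direction turned, to -0.14.

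The remaining ligands and receptors of the CXC family were mostly silent. Of 17 further family members, 11 had at least 1 read and 3 passed the filter: Cxcr3, the receptor for Cxcl9, Cxcl10 and Cxcl11, the homeostatic chemokine Cxcl14, and Pf4, also called Cxcl4. Cxcr3 had 34, 41 and 31 reads in M0 and 2, 3 and 2 reads after activation. It was 11.0-fold lower in the cells in which its ligands were highest. Cxcr3 passed the filter on low counts only through the resting groups, where it is high, and had to differ, so no p-value is given. With DGAT1i it was at 21, 14 and 20 reads in resting cells, 1.98-fold lower than M0 (edgeR adjusted p = 0.00329), and at 1, 0 and 2 reads in activated cells. Cxcl14 was 11.0 ± 1.82 CPM in M0, 5.74 ± 0.168 CPM in M0 with DGAT1i, 4.51 ± 1.11 CPM after activation and 2.24 ± 0.696 CPM after activation with DGAT1i. It was lower with DGAT1i in both resting (log2 fold change -0.94 ± 0.18 SE, edgeR adjusted p = 5.51e-05) and activated cells (-1.003 ± 0.32 SE, edgeR adjusted p = 0.0119). Pf4, a chemokine best known from platelets, was 189 ± 2.54 CPM in M0 and 64.0 ± 2.14 CPM after activation, 2.95-fold lower (edgeR adjusted p = 7.00e-29). With DGAT1i it was 180 ± 16.0 CPM in resting cells and 75.0 ± 4.58 CPM in activated cells, the latter 1.17-fold higher than without (edgeR adjusted p = 0.0185).

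**Figure D5:**
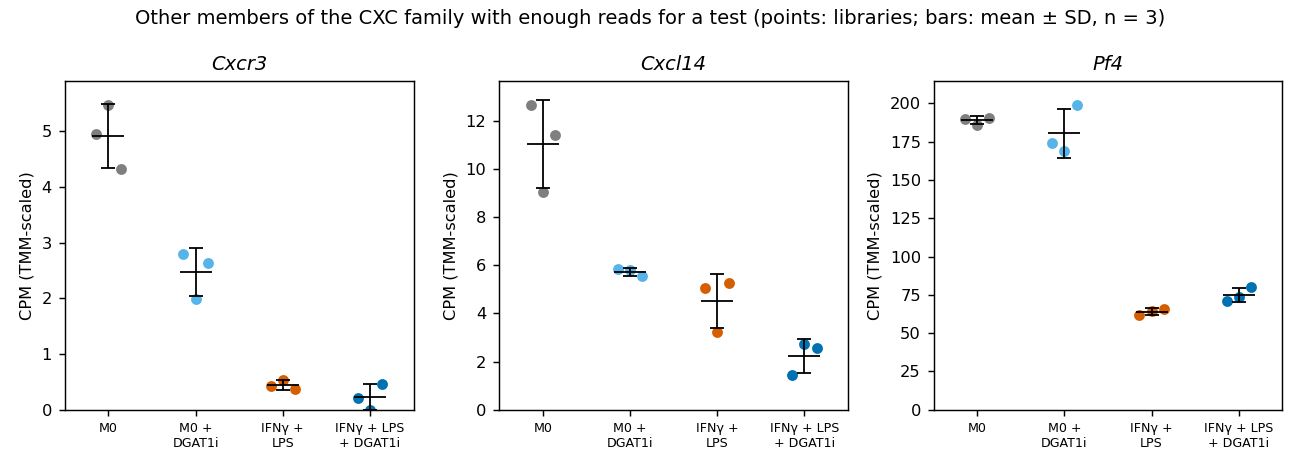
Level of Cxcr3, Cxcl14 and Pf4 in each library (TMM-scaled CPM, linear axes from 0). Points are libraries and bars the mean ± SD of 3. All 3 genes are lower in activated than in resting cells, and Cxcr3 and Cxcl14 are also lower in M0 with DGAT1i than in M0.

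Receptors for the other members were scarcely read. Cxcr2, the receptor for Cxcl1, Cxcl2 and Cxcl3, had 18 reads over the 12 libraries. Cxcr6, the receptor for Cxcl16, had 0 reads in the 6 resting libraries and 10 and 5 reads over the activated libraries without and with DGAT1i. Cxcl12, the ligand of Cxcr4, had 1 read in the series. Ppbp had 11 reads, Cxcr5 6, Cxcr1 2, Ackr2 2 and Cxcl5 1, and Cxcl13, Cxcl15, Cxcl17, Ackr1, Ackr3 and Ackr4 had none.

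Genes of the IFNγ receptor and Toll-like receptor 4 pathways lead to these chemokines. Of 24 such genes, 23 were tested, and with IFNγ + LPS 19 were higher, 3 lower and 1 did not pass, beside 37.1% higher and 36.2% lower among all genes tested. Scaling by library size alone gave 17 higher and 5 lower. The largest rise was that of Irf1, an interferon-induced transcription factor (log2 fold change 5.56 ± 0.07 SE, edgeR adjusted p = 3.84e-56). With DGAT1i in activated cells 1 of the 23 was higher and 11 were lower, beside 13.5% and 16.3% of all genes tested, and the median log2 fold change was -0.14 against -0.01 over all genes tested. The largest changes among those lower were Nfkbiz, a nuclear cofactor of NF-κB (-0.82 ± 0.11 SE, edgeR adjusted p = 9.88e-09), and Nfkb1, which encodes an NF-κB subunit (-0.61 ± 0.06 SE, edgeR adjusted p = 2.96e-13). Irf1 did not pass (-0.05 ± 0.05 SE, edgeR adjusted p = 0.542). In resting cells with DGAT1i 1 was higher and 7 were lower, beside 11.0% and 13.4% of all genes tested, and the largest of these was the LPS co-receptor Cd14 (-0.78 ± 0.06 SE, edgeR adjusted p = 4.82e-15). The difference between the 2 responses was called for 12 of the 23, 4 higher and 8 lower, beside 8.66% and 9.80% of all genes tested, and with scaling by library size alone 5 were higher and 5 lower.

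Of 15 genes for signalling from chemokine receptors and for processing of the ligands, 14 were tested. With activation 7 were called higher and 7 lower, beside 37.1% and 36.2% of all genes tested. The largest changes were those of the regulator of G protein signalling Rgs18 (-5.31 ± 0.19 SE on the log2 scale) and the phosphoinositide kinase Pik3cg (-3.02 ± 0.09 SE, edgeR adjusted p = 1.97e-36). Rgs18 passed the filter on low counts only through the resting groups, where it is high, and had to differ, so its p-value is not given. Of the 7 higher, 5 had small log2 fold changes of 0.19 to 0.36 and turned to -0.28 to -0.11 when libraries were scaled by their size alone, which made 2 higher and 10 lower. With DGAT1i in activated cells 1 was higher and 4 were lower, a share near the 29.8% of all genes tested that were called, among them Rgs1, which dampens chemokine receptor signals (log2 fold change -0.58 ± 0.06 SE, edgeR adjusted p = 9.60e-12). In resting cells 3 of the 14 were lower with DGAT1i and none higher, and the difference between the responses was called for 3, which is near the 24.4% and 18.5% of all genes tested that were called. With scaling by library size alone 7 of the 14 were lower in resting cells.

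For each tested member the 3 genes with the most similar course over the 4 group means were found among 10172 candidates, by the Euclidean distance between mean-centred log2 CPM. Cxcl9 was closest to Gbp4 (0.62), Iigp1 (0.75) and Gbp5 (0.93), and Cxcl10 to Ptgs2 (0.32), Gbp2 (0.40) and Serpina3g (0.52). Cxcl11 was closest to BC023105 (0.13), Gm4841 (0.24) and Ms4a4c (0.31). Cxcl16 was closest to Mxd1 (0.16), Pstpip2 (0.17) and Arid5a (0.28), and Cxcr4 to Enpp1 (0.31), Npl (0.31) and Padi2 (0.33). Cxcl2 was closest to Ptger2 (0.44), Hist3h2a (0.44) and Cd200r4 (0.48). These distances rest on 4 group means each and are a description. Log2 CPM was taken with a prior count of 2, which sets the resting means of Cxcl9, Cxcl11 and other genes without resting reads, so the distances of these members depend on it.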

How the data were processed

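RNA from 12 macrophage samples was sequenced, and the sample labels put them in 4 groups of 3. The authors deposited raw read counts per gene and library without normalization, made with the pipeline of their institute (per the labels, build GRCm38, with DESeq2 among the tools). The aligner, counter, strand setting and annotation release were not given in the sources used here. The library kit differs between the labels and the methods of the study. Symbols and positions were taken from GENCODE M21. No column was left unmapped.

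Counts of all 12 libraries were fitted together in R 4.3.3 with edgeR 4.0.16 (filterByExpr, which kept 11760 genes, TMM, glmQLFit robust, glmQLFTest), with 1 mean per group. Adjusted p-values are Benjamini-Hochberg values over all genes tested, and under 0.05 counted as past the threshold. The standard error (SE) is the log2 fold change divided by the t value of its p. Levels per length used the union of exons. A fold against a group with 0 reads is a bound against 3 reads over the group and covers only the counting error of that group. The members, the pathway lists and the markers were chosen with earlier results of these data known. Genes named are the members, family members with at least 1 read, from the other pathway lists at most 4 genes per comparison with the largest changes, and 3 genes of like pattern per tested member. Family members without reads are listed without values, and genes overlapping a member on the opposite strand were named outside this rule. Alternatives were DESeq2 1.42.0, RLE or library-size scaling, other filters, only the libraries compared, a replicate block, a threshold of 0.1 and each library left out. A few genes of the lists and 1 promoter motif searched are not reported here.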

Additional observations from a re-analysis of the deposited data

Results flagged for a closer look

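For 2 of the 6 members tested and for Pf4, the response to DGAT1i differed between activated and resting macrophages by a test of the difference itself, which was called for 18.5% of all genes tested. The response of Cxcl2 was -2.08 on the log2 scale in activated minus resting cells (edgeR quasi-likelihood test, adjusted p = 0.000191), with 3 of 3 resting libraries with DGAT1i above M0 and 3 of 3 activated libraries with DGAT1i below those without. The response of Cxcl16 differed by 0.41 (edgeR adjusted p = 0.00274), being 0.33 in activated and -0.08 in resting cells. That of Pf4 differed by 0.29 (edgeR adjusted p = 0.0226), being 0.23 in activated and -0.07 in resting cells.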

How the results depend on the processing

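The counts of members past the threshold were 6, 5, 2, 5 and 2 for activation, DGAT1i in activated cells, DGAT1i in resting cells, activation with DGAT1i, and the difference between the responses, and each stayed within 1.5 times its value under all alternatives run. Leaving out single libraries gave 4 to 5 for DGAT1i in activated cells and 2 to 3 for the difference. Cxcl2 in activated cells lost its call with DESeq2 (log2 fold change -0.80, adjusted p = 0.0591) and without the second IFNγ + LPS library (-0.72) or the first library of activated cells with DGAT1i (-0.60). Cxcr4 gained a call for the difference without the third M0 library (-0.72, adjusted p = 0.0328) and at a threshold of 0.1. Scaling by library size alone shifted the median over all genes (log2) to -0.46 for activation and -0.43 for activation with DGAT1i, turned Cxcl2 in the latter to -0.14 (adjusted p = 0.663), and raised the other pathway genes called for DGAT1i in resting cells from 13 to 20. Without the third library of resting cells with DGAT1i, the Cxcl10 difference turned to 0.10 (adjusted p = 0.940). The causes of these shifts were not tested. When 1 library was left out, 0 to 2 places in the order of members by level changed, and only without the second IFNγ + LPS library, where the neighbours Cxcl2 and Cxcr4, which overlap, changed places. Alternatives for the other pathway genes were chosen after seeing the data. The replicate numbers were not taken to pair the samples, since nothing in the labels ties them and deviations of same-numbered libraries correlated at -0.03 to 0.08. In 17 of 24 checks, each among 3 candidates, a library correlated best with its own number, where 1 in 3 would without pairing, which is a hint of pairing from the data and not from the design. With the replicate block the counts of members called were 6, 5, 2, 5 and 2, and no call of a member changed. Depth limits Cxcl1, Cxcl3 and resting Cxcl10, which rest on a few reads per library.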
